A study of Mus musculus with 18 samples.

Results

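Ribosome biogenesis factors are the proteins that make ribosomal RNA and build it into ribosomal subunits, without being part of the finished ribosome. The 47 genes described here are 47 of the 36528 rows of the deposited expression table. They were chosen by name from textbook roles, but with earlier results of these data known. Counts set against all genes therefore describe this list and do not test it. The list holds 3 subunits of RNA polymerase I, 7 nucleolar proteins and 6 proteins of small nucleolar ribonucleoproteins (snoRNPs). It also holds 15 factors of the small (40S) subunit and 16 factors of the large (60S) subunit. All 47 were found in the table, and all 47 had at least 1 nRPKM (normalised RPKM, a read count scaled to transcript length and library size) in all 18 libraries.

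RNA polymerase I transcribes a long precursor RNA in the nucleolus, box C/D and H/ACA snoRNPs guide its methylation and pseudouridylation, and assembly factors cut and fold it together with ribosomal proteins into the 40S and 60S subunits. Resting T cells carry few ribosomes, and stimulation through the antigen receptor and CD28 is known to start their production as the cells grow before division. Many of these genes are known targets of the transcription factor Myc, which activated T cells make. Ox40 is a costimulatory receptor of the tumour necrosis factor receptor family that T cells display after activation.

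Splenic CD4 T cells came from female NZB/W F1 mice, a hybrid of the NZB and NZW strains that develops lupus-like kidney disease, at 21 to 27 weeks of age and with 30 to 100 mg/dL of protein in the urine. The cells of all 6 groups were cultured for 48 hours with IL-2 at 10 U/mL. The groups of 3 libraries each received 25 µg/mL of anti-Ox40 IgG1 or of an isotype control IgG1 (control Ig), with no beads, with 0.1 anti-CD3/CD28 bead per cell (low beads) or with 1 bead per cell (high beads). The beads carry antibodies that stimulate the T cell receptor and CD28. Labels give neither whether anti-Ox40 activated or blocked its receptor nor whether the 3 libraries of a group came from separate mice or cultures, so p-values measure the spread between these libraries, which may be technical.

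The deposited values are nRPKM, and 1 nRPKM over 1 kilobase stood for 26.4 to 46.0 reads depending on the library. Libraries of a group correlated at 0.989 to 0.995 across genes. The 8 CD4 T cell markers in the table summed to 1464 to 1868 nRPKM in every library, against 4.36 to 6.95 nRPKM for CD8 markers, so the label matched the cells. Markers of other cell types were also present. The summed B cell markers were highest in replicate 3 of each group, the summed myeloid markers were 6.96 to 14.96 nRPKM with high beads and 242 to 340 nRPKM without beads, and lung epithelium, natural killer (NK) cell and platelet markers reached sums of 215, 121 and 82.2 nRPKM in single libraries. At low beads the nuclear RNA Malat1 had 213, 248 and 254 nRPKM with anti-Ox40, against 453, 173 and 435 nRPKM with control Ig. The control Ig libraries thus differed among themselves, replicate 2 being nearest to the anti-Ox40 libraries and replicates 1 and 3 lying above all other low-bead libraries. Genes were tested with limma on log2(nRPKM + 1), a scale that understates the change of low genes, and a gene is called where its Benjamini-Hochberg adjusted p over 13075 genes was under 0.05. In these bulk cultures, fewer cells of a type and less RNA per cell cannot be told apart.

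Promoter windows from RefSeq (build GRCm38.p6, 250 bases before to 50 after the start of the transcript) were found for 42 of the 47 genes. The table had no entry for Fbl, Bop1, Rrs1, Npm1 and Rrp12. The palindrome CACGTG, the E-box to which Myc and its partner Max bind, was searched because many of these genes moved together. It was found in the windows of 11 of the 42 genes (26.2%), against 1004 of 8358 tested protein-coding genes (12.01%) and 2187 of all 27025 genes with a window (8.09%). The related hexamer CACGCG, searched on both strands, was found in 11 of the 42 genes (26.2%), against 20.4% of the tested genes. In 9 of the 11 genes with CACGTG it lay after the transcript start, and the median position over the 11 was base 29 after it. The 11 genes were Mybbp1a, Wdr43, Utp20, Imp4, Pno1, Ltv1, Tsr1, Pes1, Nop2, Mdn1 and Grwd1. A match describes the letters of the window and is not a measured binding site. The windows below, printed 5′ to 3′ on the gene's strand with CACGTG in capitals, belong to 3 of the 8 genes called higher with anti-Ox40 at low beads (Pno1, Ltv1 and Pes1), calls that were lost when single libraries were left out, to Nop2, which anti-Ox40 raised strongly at high beads, and to Mdn1, which fell with beads while most of the others rose.
Pno1, chr11:17211540-17211839, minus strand, CACGTG at base 38 after the start: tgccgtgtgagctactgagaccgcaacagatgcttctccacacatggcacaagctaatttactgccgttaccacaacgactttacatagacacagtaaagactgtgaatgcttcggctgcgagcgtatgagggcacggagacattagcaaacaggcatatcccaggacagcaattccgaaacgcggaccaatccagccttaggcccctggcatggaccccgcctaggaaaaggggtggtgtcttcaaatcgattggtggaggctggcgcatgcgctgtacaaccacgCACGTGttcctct
Ltv1, chr10:13193088-13193387, minus strand, CACGTG at base 29 after the start: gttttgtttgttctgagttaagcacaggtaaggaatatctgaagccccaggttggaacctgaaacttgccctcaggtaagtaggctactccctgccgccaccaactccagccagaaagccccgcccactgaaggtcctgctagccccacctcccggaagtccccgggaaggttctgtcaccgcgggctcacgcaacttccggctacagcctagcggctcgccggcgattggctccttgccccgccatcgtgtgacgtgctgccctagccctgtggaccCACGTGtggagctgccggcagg
Pes1, chr11:3963725-3964024, plus strand, CACGTG at base 3 after the start: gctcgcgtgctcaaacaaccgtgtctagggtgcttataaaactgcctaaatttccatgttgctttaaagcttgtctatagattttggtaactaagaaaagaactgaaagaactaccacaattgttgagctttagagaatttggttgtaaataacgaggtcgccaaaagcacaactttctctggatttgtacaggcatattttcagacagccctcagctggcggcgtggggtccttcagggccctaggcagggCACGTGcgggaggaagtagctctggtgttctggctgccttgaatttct
Nop2, chr6:125131633-125131932, plus strand, CACGTG 60 bases before the start: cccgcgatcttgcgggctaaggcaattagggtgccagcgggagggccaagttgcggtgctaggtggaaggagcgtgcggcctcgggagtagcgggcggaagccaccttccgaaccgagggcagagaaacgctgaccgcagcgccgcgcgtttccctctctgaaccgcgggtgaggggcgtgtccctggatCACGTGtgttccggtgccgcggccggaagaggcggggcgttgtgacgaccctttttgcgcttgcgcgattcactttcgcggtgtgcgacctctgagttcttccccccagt
Mdn1, chr4:32656869-32657168, plus strand, CACGTG at base 39 after the start: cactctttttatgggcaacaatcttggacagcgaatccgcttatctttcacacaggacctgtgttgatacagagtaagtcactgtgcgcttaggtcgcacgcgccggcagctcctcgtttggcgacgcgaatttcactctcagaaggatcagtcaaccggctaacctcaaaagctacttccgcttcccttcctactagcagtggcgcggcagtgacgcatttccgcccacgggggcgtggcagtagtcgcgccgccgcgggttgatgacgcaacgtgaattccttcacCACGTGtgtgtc

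Across all libraries, the 47 genes spanned a wide range of levels per length. Ncl, which encodes the abundant nucleolar protein nucleolin, averaged 133 nRPKM. It was followed by the 60S factor Noc2l at 74.9 nRPKM, Mybbp1a, a Myb-binding nucleolar protein, at 69.9 nRPKM and Nop58, a core protein of box C/D snoRNPs, at 66.4 nRPKM. The lowest were Wdr12 at 4.26 nRPKM, Npm3, a relative of nucleophosmin, at 4.45 nRPKM and Noc3l at 8.44 nRPKM. The 47 genes together took 0.334 to 0.342% of the summed nRPKM of a library in anti-Ox40 cultures without beads, against 0.330 to 0.339% in control Ig cultures without beads. At low beads the shares were 0.406 to 0.437% with anti-Ox40, against 0.362, 0.402 and 0.373% with control Ig. At high beads they were 0.703, 0.642 and 0.597% with anti-Ox40, against 0.529, 0.497 and 0.475% with control Ig. The antibody groups thus did not overlap at low or at high beads.

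The most frequent order of the group means, found in 20 genes, ran from high beads with anti-Ox40 through high beads with control Ig, low beads with anti-Ox40 and low beads with control Ig to the 2 groups without beads, and 15 other genes differed from it only in the order of the groups without beads. Mdn1 ran almost the other way, with its highest means without beads. Polr1a, the largest subunit of RNA polymerase I, had its highest mean in anti-Ox40 cultures with high beads and its next highest in both groups without beads.

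**Figure D1:**
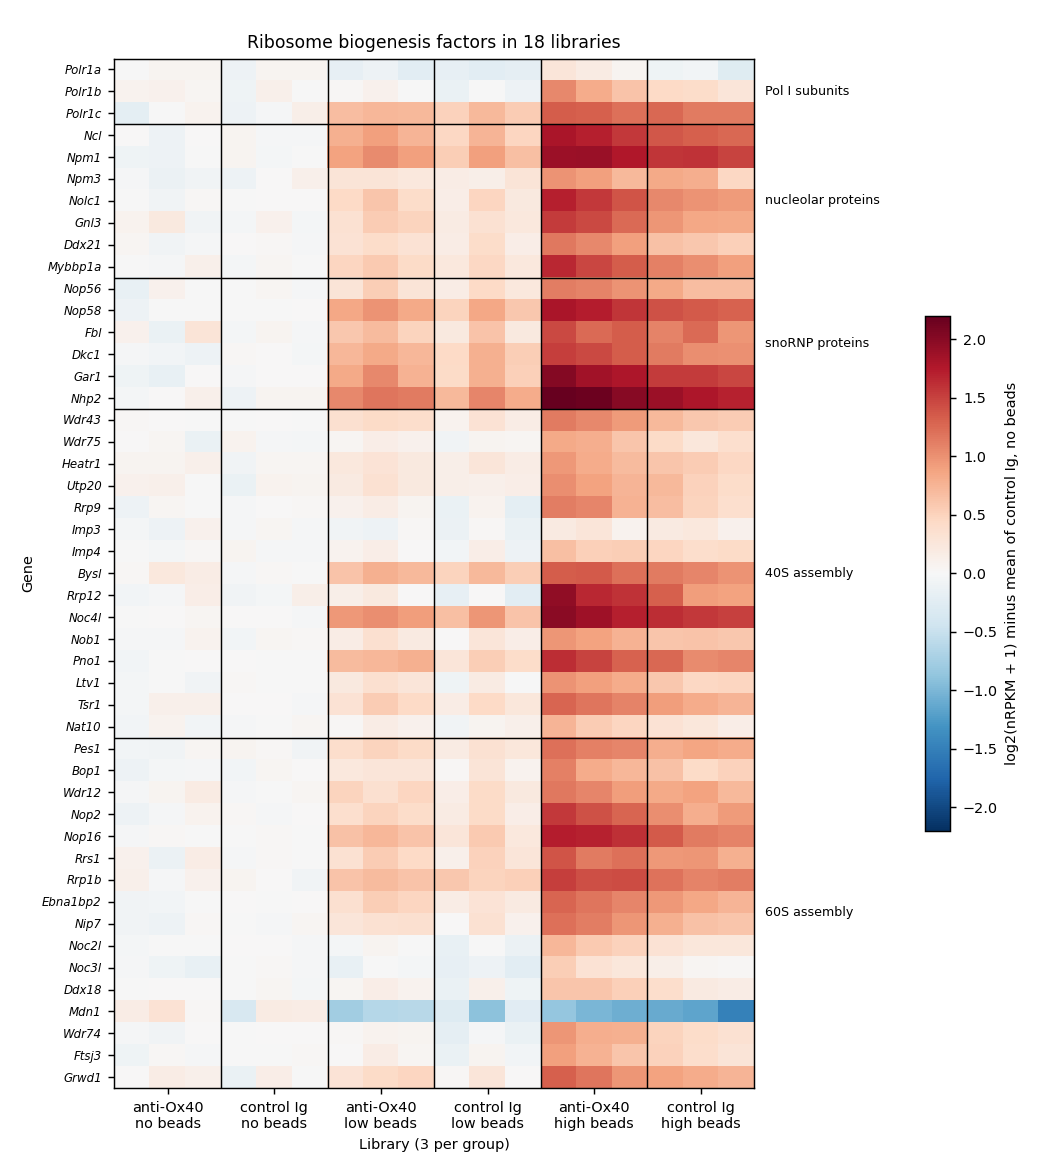
Level of each of the 47 genes (down, by role) in each of the 18 libraries (across, by group), as log2(nRPKM + 1) minus the gene's mean in control Ig cultures without beads. Most genes move to the high end of the colour scale toward high beads, and furthest with anti-Ox40, while Mdn1 is lower in every group with beads.

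Beads raised nearly all of the 47 genes in control Ig cultures. High against no beads, 44 genes rose, 2 fell and 1 was not called, with a median log2 change of 0.81 against 0.04 over all genes tested. In the same comparison 43.4% of all genes were called higher and 38.9% lower. The largest rises were those of Nhp2 (log2 change 1.78, adjusted p = 1.5e-11), an H/ACA snoRNP protein, Noc4l (1.56), a 40S factor, Npm1 (1.55, adjusted p = 9.56e-12), which encodes nucleophosmin, Gar1 (1.51), another H/ACA protein, Nop58 (1.35) and Ncl (1.31). The smallest rises were those of Imp3 (0.17, adjusted p = 0.0223), Nat10 (0.24), Ddx18 (0.25), Noc2l (0.27) and Wdr75 (0.35), and Polr1c rose by 1.18. By role, the median log2 change was 1.22 in snoRNP proteins, 1.00 in nucleolar proteins, 0.75 in 60S factors, 0.54 in 40S factors and 0.37 in polymerase subunits. Myeloid markers moved with the beads, 9 of 9 being lower at high than at no beads under both antibodies, as did the nuclear RNAs Malat1 and Neat1. Summed platelet markers were 6.24 to 12.6 nRPKM with high beads and 54.0 to 82.2 nRPKM without beads over both antibodies. NK cell markers summed to 73.4 to 121 nRPKM with high beads and 42.5 to 57.0 nRPKM without beads in anti-Ox40 cultures, and to 53.1 to 85.7 and 45.3 to 53.9 nRPKM in control Ig cultures. Lung epithelium markers summed to 28.5 to 119 nRPKM with high beads and to at most 0.107 nRPKM without beads. The part of these cell type markers in the result was not tested. With the mean level of Malat1 and Neat1 as a covariate, 28 of the 47 genes were called, all higher, as were 7357 of all 13075 genes in either direction. On the log2 scale this mean was 7.83 to 8.16 without beads and 6.29 to 6.59 with high beads in control Ig cultures. It separated the groups compared, so this fit cannot tell the covariate apart from bead dose.

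The libraries show the shapes of these rises. Nhp2 had 17.7, 20.1 and 20.3 nRPKM in control Ig cultures without beads, 32.3, 41.8 and 34.8 nRPKM with low beads and 73.7, 68.6 and 64.9 nRPKM with high beads. Npm1 had 27.0, 25.1 and 25.6 nRPKM without beads, 38.2, 49.5 and 41.5 nRPKM with low beads and 78.8, 79.8 and 74.8 nRPKM with high beads. In both genes the 3 doses lay apart at each step, and control Ig low-bead replicate 2 was the highest of its group. Rrp12 had 9.32, 9.60 and 10.9 nRPKM without beads, 8.60, 9.98 and 8.33 nRPKM with low beads and 26.2, 19.7 and 19.0 nRPKM with high beads, so that its low-bead libraries overlapped those without beads and its high-bead ones stood above both. Noc2l, already at 67.8, 68.3 and 66.3 nRPKM without beads, had 60.4, 67.4 and 61.4 nRPKM with low beads and 84.4, 80.1 and 80.3 nRPKM with high beads. Imp3 moved little, with 37.4, 39.1 and 37.1 nRPKM without beads, 34.5, 38.6 and 34.1 nRPKM with low beads and 43.7, 44.5 and 40.4 nRPKM with high beads, although its high-bead libraries lay above all others.

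The dose steps were not alike across the genes. Between low and no beads, control Ig cultures had 26 genes higher and 3 lower, against 32.6% and 29.8% of all genes, with a median log2 change of 0.22 against 0.01 over all genes. Nhp2 (0.87, adjusted p = 3.94e-07), Noc4l (0.75), Npm1 (0.70), Nop58 (0.64), Polr1c (0.59) and Dkc1 (0.58), the pseudouridine synthase of H/ACA snoRNPs, rose most, and Heatr1 (0.19), Wdr43 (0.19), Ebna1bp2 (0.22) and Ddx21 (0.23) rose least among the called. Ncl rose by 0.56, while Imp3 had a log2 change of -0.08 (adjusted p = 0.29). All 6 snoRNP proteins and 6 of 7 nucleolar proteins rose at this step, but 6 of 15 factors of the 40S subunit and 7 of 16 of the 60S subunit. The 3 genes that fell were Mdn1 (-0.48, adjusted p = 0.0195), Polr1a (-0.21, adjusted p = 0.00996) and Noc3l (-0.18, adjusted p = 0.0323). Without control Ig low-bead replicate 2, the low-bead library lowest in Malat1, 17 genes were higher and 4 lower, with 7625 genes called over all.

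Between high and low beads in control Ig cultures, 45 genes rose and 1 fell, against 72.5% of all genes called in either direction, with a median log2 change of 0.54 against 0.04. Rrp12, a 40S assembly factor, rose most (1.17, adjusted p = 2.32e-07), followed by Gar1 (0.94), Nhp2 (0.91), Npm1 (0.85, adjusted p = 5.41e-08), Nop16 (0.83), a 60S factor, and Noc4l (0.80). Nat10 (0.20, adjusted p = 0.02), which acetylates small-subunit rRNA, rose least, next to Noc3l (0.24), Imp3 (0.26), Ddx18 (0.30), Wdr75 (0.33) and Heatr1 (0.35). Of the highest genes by role, Ncl rose by 0.75, Nop58 by 0.70, Polr1c by 0.59 and Noc2l by 0.37. Mdn1 was the gene that fell (-0.77, adjusted p = 0.000635). Some of the genes that rose at this step were not called at the lower one: Rrp12 had a log2 change of -0.13, Noc2l of -0.10, Polr1b of -0.09 and Ltv1 of 0.03 between low and no beads. Polr1a was not called between high and low beads (0.06, adjusted p = 0.389), and with the nuclear RNA covariate 18 of the 47 genes were called, as were 4456 of all 13075 genes. The covariate was 7.19 to 8.21 with low and 6.29 to 6.59 with high beads, so it again separated the doses compared.

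The same steps were tested in anti-Ox40 cultures. Low against no beads, 32 genes rose and 2 fell, against 37.1% and 33.7% of all genes, with a median log2 change of 0.37 against 0.01. Nhp2 (1.10), Npm1 (1.01, adjusted p = 5.93e-09), Gar1 (0.97), Noc4l (0.95), Nop58 (0.94) and Ncl (0.84) rose most, and Heatr1 (0.17), Nob1 (0.22), the endonuclease that makes the end of small-subunit rRNA, Grwd1 (0.31), Bop1 (0.31) and Ltv1 (0.33) least among the called. Polr1c rose by 0.75, while Imp3 (-0.03, adjusted p = 0.723) and Noc2l (0.02, adjusted p = 0.722) were not called. All 7 nucleolar and all 6 snoRNP proteins rose, with 8 of 15 factors of the 40S subunit and 10 of 16 of the 60S subunit. Mdn1 (-0.83, adjusted p = 0.000329) and Polr1a (-0.22, adjusted p = 0.00613) fell.

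High against low beads, 46 genes rose in anti-Ox40 cultures and none fell, against 40.3% and 31.2% of all genes, with a median log2 change of 0.70 against 0.05. Rrp12 (1.62, adjusted p = 6.46e-09), Nolc1 (1.07), a chaperone of snoRNPs, Nhp2 (1.01), Nop16 (1.01), Gar1 (1.00) and Mybbp1a (0.99) rose most. Imp3 (0.24), Polr1a (0.34), Noc3l (0.44), Ddx18 (0.49), Nat10 (0.49) and Imp4 (0.50) rose least, and Mdn1 was not called (-0.32, adjusted p = 0.1). Ncl rose by 0.88, Nop58 by 0.81, Noc2l by 0.60 and Polr1c by 0.59. High against no beads, 45 genes rose and Mdn1 fell (-1.15, adjusted p = 7.65e-06), against 45.2% and 39.3% of all genes, with a median log2 change of 1.09 against 0.06. Nhp2 (2.11, adjusted p = 1.51e-12), Gar1 (1.97), Npm1 (1.93, adjusted p = 5.42e-13), Noc4l (1.84), Nop58 (1.74) and Rrp12 (1.72) led here, while Imp3 (0.21), Noc3l (0.47), Ddx18 (0.57), Imp4 (0.59), Nat10 (0.61) and Noc2l (0.63) rose least. Ncl rose by 1.72 and Polr1c by 1.34, and Polr1a was not called (0.13, adjusted p = 0.0693). The comparisons within and between antibodies share libraries, so their calls are not independent of each other.

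Anti-Ox40 with high beads raised 41 of the 47 genes over control Ig with high beads, and lowered none. All 47 log2 changes were positive, between 0.01 and 0.70, and their median was 0.34 against 0.00 over all genes tested. In this comparison 14.4% of all genes were called higher and 26.0% in either direction. For 44 genes all 3 anti-Ox40 libraries lay above all 3 control Ig libraries, as they did for 23.8% of all genes (19.5% lay wholly below), and Imp3, Npm3 and Polr1c overlapped. By role, anti-Ox40 raised 6 of 7 nucleolar proteins (median log2 change 0.45), 5 of 6 snoRNP proteins (0.35), 13 of 15 factors of the 40S subunit (0.34), 15 of 16 of the 60S subunit (0.34) and 2 of 3 polymerase subunits. Of the 41 calls, 36 held whichever library was left out, and 29 genes were called, with 1376 over all genes, without the library of each group with the highest B cell markers.

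**Figure D2:**
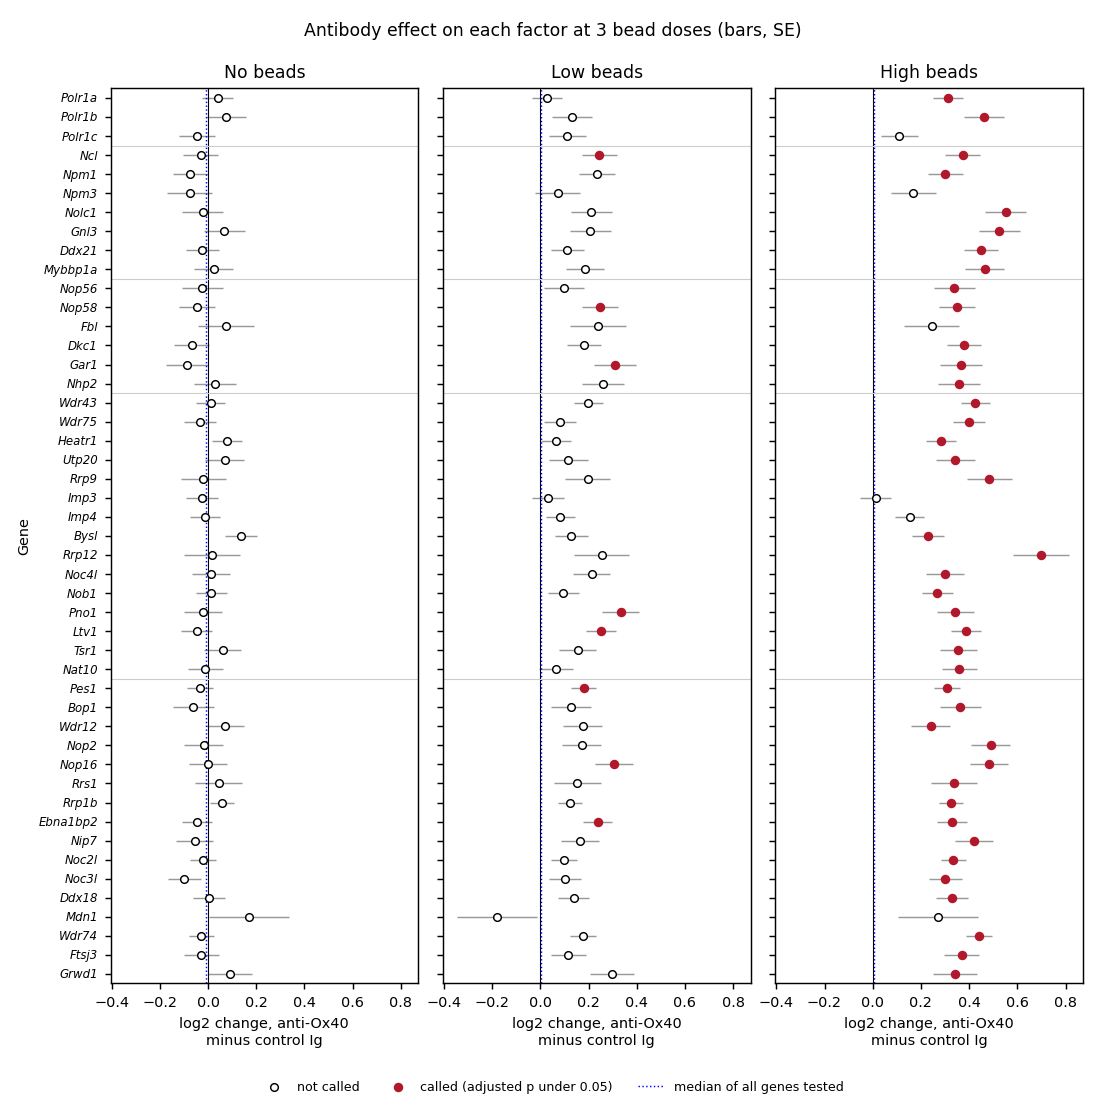
Log2 change of each gene, anti-Ox40 minus control Ig, with no, low and high beads in 3 panels, where bars are standard errors, filled points are called genes and the dotted line is the median of all genes tested. With high beads 41 points are filled and all lie right of 0, with low beads 8 are filled, and with no beads none is.

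The same comparison moved T cell markers and the nuclear RNA Neat1. The 8 CD4 T cell markers summed to 1464 to 1541 nRPKM in anti-Ox40 cultures with high beads, against 1705 to 1786 nRPKM in control Ig cultures with high beads, and 5 of the 8 were lower. Neat1 was lower with anti-Ox40 (-0.56, limma adjusted p = 0.00953), while Malat1 was not called (-0.35, SE 0.30, limma adjusted p = 0.434). Summed B cell markers were 4.13 to 6.41 nRPKM with anti-Ox40 and 4.04 to 11.1 nRPKM with control Ig, myeloid markers 6.96 to 8.66 and 7.39 to 14.96 nRPKM, and platelet markers 6.24 to 6.65 and 9.34 to 12.6 nRPKM. NK cell markers summed to 73.4 to 121 nRPKM with anti-Ox40 and 53.1 to 85.7 nRPKM with control Ig, and lung epithelium markers to 28.5 to 52.6 and 30.4 to 119 nRPKM. The part of the CD4 T cell, myeloid, platelet, NK cell and lung epithelium markers in the result was not tested. With the nuclear RNA covariate 35 of the 47 genes were called, as were 2772 of all 13075 genes.

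RNA polymerase I subunits rose unevenly at high beads. Polr1b, a core subunit, had 21.0, 17.7 and 15.5 nRPKM with anti-Ox40, against 13.5, 13.1 and 11.8 nRPKM with control Ig. Its groups did not overlap, and its log2 change was 0.46 (SE 0.08, adjusted p = 0.000985). Polr1a had 22.8, 21.4 and 19.8 nRPKM with anti-Ox40, against 17.5, 17.995 and 15.5 nRPKM with control Ig. All anti-Ox40 libraries again lay above all control Ig ones, with a log2 change of 0.31 (SE 0.06, adjusted p = 0.00206). Polr1c, which RNA polymerases I and III share, had 40.9, 40.4 and 37.6 nRPKM with anti-Ox40, against 38.8, 35.4 and 35.7 nRPKM with control Ig. Its groups overlapped and it was not called (0.11, SE 0.08, adjusted p = 0.322), although Polr1c rose most of the 3 subunits with beads.

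Nucleolar proteins had the largest median change. Ncl had 254, 239 and 217 nRPKM in anti-Ox40 cultures with high beads, against 188, 182 and 177 nRPKM in control Ig cultures. The groups did not overlap, the means being 237 ± 19.1 and 182 ± 5.63 nRPKM (SD, n = 3 each), and the log2 change was 0.37 (SE 0.07, limma adjusted p = 0.00171). Nolc1 had 93.8, 84.0 and 74.2 nRPKM with anti-Ox40, against 59.4, 56.5 and 54.4 nRPKM with control Ig. Its change of 0.55 (SE 0.09, adjusted p = 0.000333) was the largest of the role, ahead of Gnl3, which encodes the nucleolar GTP-binding protein nucleostemin (0.53, SE 0.09, adjusted p = 0.000472). Mybbp1a had 139.5, 123 and 112 nRPKM with anti-Ox40, against 96.0, 90.5 and 83.1 nRPKM with control Ig, and a log2 change of 0.46 (SE 0.08, adjusted p = 0.000713). Npm1, which has processed pseudogenes that could share its reads, had 98.2, 99.7 and 90.6 nRPKM with anti-Ox40, against 78.8, 79.8 and 74.8 nRPKM with control Ig, and rose by 0.30 (SE 0.07, adjusted p = 0.00662). In both genes the lowest anti-Ox40 library lay above the highest control Ig library. The RNA helicase Ddx21 rose by 0.45 (adjusted p = 0.000326), and Npm3 was not called (0.17, adjusted p = 0.21).

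Core snoRNP proteins rose with anti-Ox40 at high beads, except the methyltransferase Fbl. Nop58 had 124, 119 and 107 nRPKM with anti-Ox40, against 94.5, 90.8 and 87.7 nRPKM with control Ig (0.35, SE 0.07, adjusted p = 0.003). Nop56, its partner in box C/D particles, had 79.3, 76.7 and 71.9 nRPKM with anti-Ox40, against 64.6, 57.6 and 57.5 nRPKM with control Ig (0.34, SE 0.08, adjusted p = 0.00794). Gar1 had 57.6, 51.1 and 48.7 nRPKM with anti-Ox40, against 41.1, 41.0 and 39.1 nRPKM with control Ig (0.36, SE 0.09, adjusted p = 0.00612). None of these 3 genes had overlapping groups. Dkc1 rose by 0.38 (adjusted p = 0.00129) and Nhp2 by 0.36 (adjusted p = 0.00702). Fbl had 27.7, 23.9 and 25.4 nRPKM with anti-Ox40, against 21.3, 23.8 and 19.5 nRPKM with control Ig. The groups just missed each other and Fbl was not called (0.24, SE 0.11, adjusted p = 0.134).

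Among factors of the 40S subunit, Rrp12 showed the largest log2 change of all 47 genes. It had 41.4, 33.5 and 31.9 nRPKM in anti-Ox40 cultures with high beads, against 26.2, 19.7 and 19.0 nRPKM in control Ig cultures. Replicate 1 was the highest of each group, and the groups did not overlap. The means of 35.6 ± 5.06 and 21.6 ± 3.96 nRPKM (SD, n = 3 each) gave a ratio of 1.65, and the log2 change was 0.70 (SE 0.12, limma adjusted p = 0.000531). Rrp9, a protein of the U3 snoRNP, followed (0.48, SE 0.09, adjusted p = 0.00157). Noc4l had 69.2, 63.0 and 57.0 nRPKM with anti-Ox40, against 53.3, 50.7 and 48.9 nRPKM with control Ig, and rose by 0.30 (adjusted p = 0.0105), a call lost without anti-Ox40 high-bead replicate 1. Pno1, the partner of Nob1, had 36.1, 32.7 and 28.8 nRPKM with anti-Ox40, against 27.9, 23.8 and 24.5 nRPKM with control Ig, and rose by 0.34 (adjusted p = 0.00439). Ltv1, which acts late in 40S assembly, had 27.7, 25.9 and 24.4 nRPKM with anti-Ox40, against 20.8, 18.9 and 19.2 nRPKM with control Ig, and rose by 0.39 (adjusted p = 0.000462). None of these genes had overlapping groups.

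The factors that act on the early 40S precursor also rose, Wdr43 by 0.43, Wdr75 by 0.40, Utp20 by 0.34 and Heatr1 by 0.28. Tsr1 rose by 0.35, Nat10 by 0.36, Nob1 by 0.27 and Bysl by 0.23 (adjusted p = 0.021), the smallest called change, which was lost when any of 4 libraries was left out. Imp3 and Imp4, proteins of the U3 snoRNP, were the exceptions. Imp3 had 43.8, 45.9 and 40.02 nRPKM with anti-Ox40, against 43.7, 44.5 and 40.4 nRPKM with control Ig. The groups overlapped throughout and the log2 change was 0.01 (SE 0.07, adjusted p = 0.918). Imp4 had 42.0, 38.0 and 38.3 nRPKM with anti-Ox40, against 36.4, 34.4 and 35.2 nRPKM with control Ig, which did not overlap but were not called (0.15, SE 0.06, adjusted p = 0.0776).

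Factors of the 60S subunit rose in 15 of 16 cases. Wdr74 had 46.5, 41.4 and 41.0 nRPKM in anti-Ox40 cultures with high beads, against 33.1, 31.2 and 29.8 nRPKM in control Ig cultures, and had the smallest adjusted p of the 47 genes (0.44, SE 0.05, adjusted p = 6.9e-05). Nop2, a methyltransferase of large-subunit rRNA, had 59.2, 53.3 and 48.9 nRPKM with anti-Ox40, against 40.9, 34.9 and 38.2 nRPKM with control Ig (0.49, SE 0.08, adjusted p = 0.000539). Nop16 had 29.3, 28.5 and 26.7 nRPKM with anti-Ox40, against 22.2, 19.2 and 18.4 nRPKM with control Ig (0.48, SE 0.08, adjusted p = 0.000477). The groups of all 3 genes lay apart. Noc2l had 113, 101 and 96.3 nRPKM with anti-Ox40, against 84.4, 80.1 and 80.3 nRPKM with control Ig (0.33, SE 0.05, adjusted p = 0.000379). Ftsj3, an rRNA methyltransferase, had 59.3, 53.4 and 47.9 nRPKM with anti-Ox40, against 44.4, 40.8 and 38.2 nRPKM with control Ig (0.37, SE 0.07, adjusted p = 0.00174). Ebna1bp2 had 44.1, 40.7 and 37.9 nRPKM with anti-Ox40, against 34.6, 32.3 and 30.1 nRPKM with control Ig (0.33, SE 0.06, adjusted p = 0.00118). These 3 genes did not overlap between the antibodies either.

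**Figure D3:**
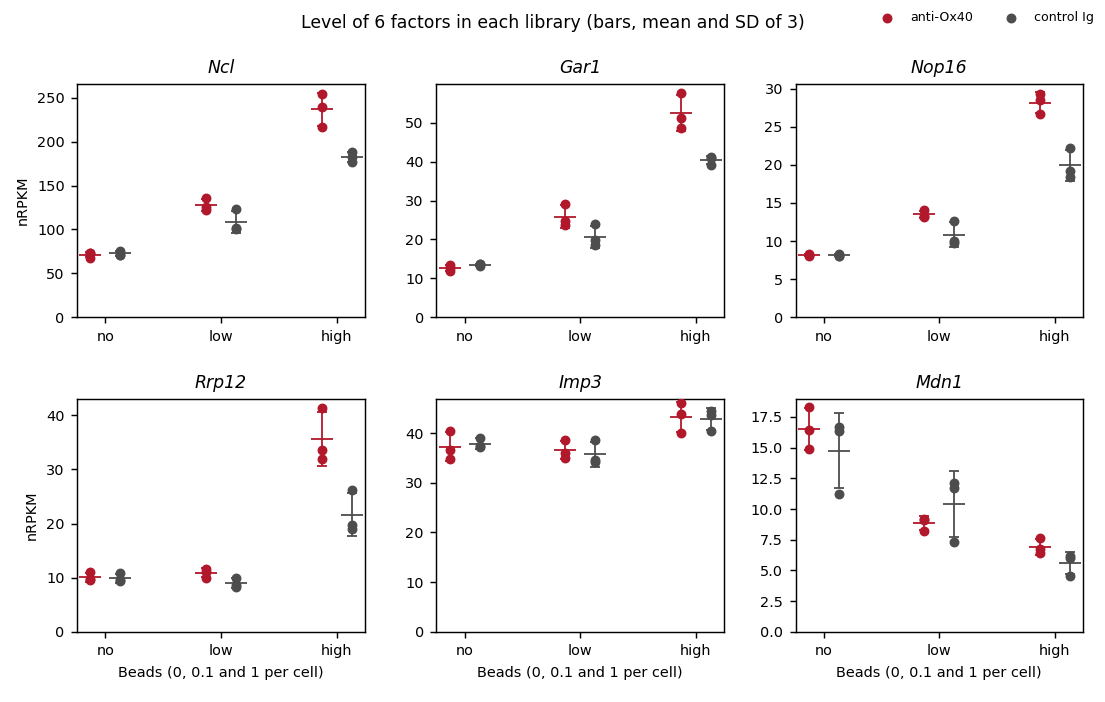
nRPKM of 6 genes in each library, anti-Ox40 left of control Ig at each bead dose, with the mean and SD of 3 libraries. Ncl, Gar1, Nop16 and Rrp12 are higher with anti-Ox40 at high beads, Imp3 is alike under both antibodies at 43.2 and 42.8 nRPKM, and Mdn1 is highest without beads.

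Pes1, Bop1 and Wdr12 form a complex of the 60S pathway. At high beads Bop1 rose by 0.36, Pes1 by 0.31 and Wdr12 by 0.24 (adjusted p = 0.0374), the call of Wdr12 being lost without any of 4 libraries. Nip7 rose by 0.42, Rrs1 and Grwd1, a chaperone of a ribosomal protein, by 0.34 each, Ddx18, an RNA helicase, by 0.33, Rrp1b by 0.32 and Noc3l by 0.30. Mdn1, the giant ATPase that strips assembly factors from the 60S precursor, was the 60S factor not called (0.27, SE 0.17, adjusted p = 0.254). Its libraries had 7.65, 6.71 and 6.40 nRPKM with anti-Ox40, against 6.19, 5.99 and 4.58 nRPKM with control Ig, and did not overlap.

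Mdn1 was also the exception in the bead response. In control Ig cultures it had 11.3, 16.7 and 16.4 nRPKM without beads, 11.7, 7.28 and 12.1 nRPKM with low beads and 6.19, 5.99 and 4.58 nRPKM with high beads. High against no beads it fell by 1.25 on the log2 scale (adjusted p = 3.17e-06), while Polr1a fell by 0.14 (adjusted p = 0.0448) and Noc3l was not called (0.07, adjusted p = 0.379). The low-bead control Ig library with the least Mdn1 was also the low-bead library with the least Malat1. With the nuclear RNA covariate the change of Mdn1 turned to 0.38 for high against no beads in anti-Ox40 cultures and to 0.20 for high against low beads in control Ig cultures.

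With low beads, anti-Ox40 raised 8 of the 47 genes (17.0%) over control Ig, against 6.15% of all genes called higher and 9.59% in either direction, and lowered none. The log2 change was positive in 46 genes, with a median of 0.16 against 0.00 over all genes, and Mdn1 was the exception (-0.18, SE 0.17, adjusted p = 0.504). The 8 genes were the 40S factors Pno1 and Ltv1, the 60S factors Nop16, Ebna1bp2 and Pes1, the snoRNP proteins Gar1 and Nop58, and Ncl. For 11 genes all anti-Ox40 libraries lay above all control Ig libraries, as they did for 13.1% of all genes, and for none did all lie below, as they did for 12.8%.

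Pno1 had 18.5, 18.9 and 19.9 nRPKM in anti-Ox40 cultures with low beads, against 13.5, 16.5 and 14.9 nRPKM in control Ig cultures (0.33, SE 0.08, adjusted p = 0.0216). Ltv1 had 15.8, 17.4 and 16.4 nRPKM with anti-Ox40, against 12.6, 15.3 and 13.4 nRPKM with control Ig (0.25, SE 0.06, adjusted p = 0.0261). Neither gene overlapped between the antibodies, and replicate 2 was the highest of the control Ig libraries in both. Nop16 had 13.3, 14.1 and 13.1 nRPKM with anti-Ox40, against 9.96, 12.7 and 9.79 nRPKM with control Ig (0.30, SE 0.08, adjusted p = 0.0298). Ebna1bp2 had 22.6, 26.0 and 24.7 nRPKM with anti-Ox40, against 19.7, 21.7 and 20.3 nRPKM with control Ig (0.24, SE 0.06, adjusted p = 0.0297). Again the groups lay apart. Gar1 had 24.7, 29.2 and 23.7 nRPKM with anti-Ox40, against 18.5, 23.9 and 19.8 nRPKM with control Ig (0.31, SE 0.09, adjusted p = 0.0395). Its control Ig replicate 2 lay above its lowest anti-Ox40 library. Nop58 changed by 0.25 (limma adjusted p = 0.0487) and Ncl by 0.24 (limma adjusted p = 0.0478). In both, control Ig replicate 2 lay above the lowest anti-Ox40 library, at 63.9 against 63.2 nRPKM in Nop58 and 122.8 against 122.5 nRPKM in Ncl. Pes1 had 11.1, 11.97 and 11.5 nRPKM with anti-Ox40, against 9.46, 10.7 and 9.98 nRPKM with control Ig (0.18, limma adjusted p = 0.0459), and did not overlap.

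Just outside the threshold stood Wdr43 (0.20, adjusted p = 0.0503), Wdr74 (0.18, adjusted p = 0.0506), Npm1 (0.24, adjusted p = 0.0525), Grwd1 (0.30, adjusted p = 0.0525) and Nhp2 (0.26, adjusted p = 0.068). The 8 calls rested on the libraries used: 28 genes were called without control Ig low-bead replicate 2, 3 without anti-Ox40 low-bead replicate 1, and none without any other of the 6 libraries. The calls over all genes moved with them, from 1254 with every library to 3524 without control Ig low-bead replicate 2, 553 without anti-Ox40 low-bead replicate 1 and 135 to 317 without each of the others. None was called with the nuclear RNA covariate or without the library of each group with the highest B cell markers, either, where 242 and 24 genes were called over all. Lung epithelial markers also differed between these groups, summing to 38.4 to 215 nRPKM with anti-Ox40 and 0.014 to 25.8 nRPKM with control Ig, and their part in the result was not tested.

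Without beads, limma called none of the 47 genes between anti-Ox40 and control Ig, and none at an unadjusted p under 0.05. The log2 changes lay between -0.10 and 0.17 with a median of -0.02, 20 of them positive and 27 negative. Over all genes 18 were called, all higher (0.138%), and 519 had an unadjusted p under 0.05. Ncl had 73.2, 67.6 and 72.9 nRPKM with anti-Ox40, against 75.6, 71.2 and 71.4 nRPKM with control Ig. Rrp12 had 9.49, 9.67 and 11.03 nRPKM with anti-Ox40, against 9.32, 9.60 and 10.9 nRPKM with control Ig. Both overlapped between the antibodies, as did 44 of the 47 genes. All anti-Ox40 libraries lay above in 1 gene and below in 2, as they did in 4.08% and 5.14% of all genes.

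The antibody change itself was larger at high than at no beads for 29 of the 47 genes and smaller for none, by the interaction term, against 6.4% of all genes larger, 4.7% smaller and 11.1% in either direction. The median difference between the changes was 0.37 against 0.01 over all genes. Rrp12 (0.68, SE 0.16, adjusted p = 0.0175), Nolc1 (0.57, SE 0.12, adjusted p = 0.0106), Nop2 (0.51, SE 0.11, adjusted p = 0.014), Rrp9 (0.50, SE 0.13, adjusted p = 0.0256), Nop16 (0.48, SE 0.11, adjusted p = 0.0148) and Nip7 (0.48, SE 0.11, adjusted p = 0.0156) led. The smallest called differences were those of Rrp1b (0.27), Ddx18 (0.33), Pes1 (0.34), Noc2l (0.36), Pno1 (0.36) and Nat10 (0.37). Ncl and Nop58 had 0.40 each, and Imp3 (0.04, adjusted p = 0.853) and Polr1c (0.16, adjusted p = 0.387) were not called. The 29 included 6 of 7 nucleolar proteins, 3 of 6 snoRNP proteins, 7 of 15 factors of the 40S subunit, 12 of 16 of the 60S subunit and Polr1b. The count depended on single libraries: it was 14 without anti-Ox40 high-bead replicate 1, 15 and 13 without control Ig high-bead replicates 2 and 3, 18 without anti-Ox40 no-bead replicate 1 or control Ig no-bead replicate 2, and 19 without control Ig no-bead replicate 3. In those fits 592 to 980 genes were called over all, against 1451 with every library. The count was 3 with the nuclear RNA covariate, with 562 genes called over all, and 0 without the library of each group with the highest B cell markers, with 5 called over all.

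Between low and no beads the antibody change differed by the interaction term in none of the 47 genes, where 0.26% of all genes had a larger change and 0.268% a change in either direction. An unadjusted p under 0.05 was found in 12 of the 47 genes and in 2307 of all 13075. The median difference was 0.16. Between high and low beads it differed in none of them either, where 1.47% of all genes had a larger change and 3.17% a change in either direction. Here 18 of the 47 genes and 2638 of all 13075 had an unadjusted p under 0.05, and the median difference was 0.20. The 41 calls at high and the 8 at low beads are therefore not shown to be antibody changes of unequal size.

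Other genes of the pathway, listed by name, moved in the same direction at high beads, in smaller shares than the 47 genes. In that comparison 14.4% of all genes were called higher. These lists too were chosen with earlier results known, so the shares are descriptive. Anti-Ox40 raised 25 of 39 other factors of the 40S subunit (median log2 change 0.23), with Utp6 at 0.36, Utp18 at 0.39, Esf1 at 0.41 and Mphosph10 at 0.44. It raised 36 of 48 other factors of the 60S subunit (median 0.25), with Gtpbp4 at 0.40, Mak16 at 0.45, Nol8 at 0.36 and Ppan at 0.47. Of 18 other genes of RNA polymerase I and its cofactors 6 rose (median 0.16), led by Rrn3, the initiation factor, at 0.43 (adjusted p = 0.000605). Of 23 genes of the RNA exosome and RNase MRP 8 rose (median 0.15), with Dis3, the exosome nuclease, at 0.30. None of the genes in these lists was called without beads, and at low beads, where 6.15% of all genes were higher, 4 of the 39, 7 of the 48, 2 of the 18 and 2 of the 23 rose. At low beads 1 gene of these lists fell, Baz2a of the polymerase I list (-0.23, adjusted p = 0.0478).

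**Figure D4:**
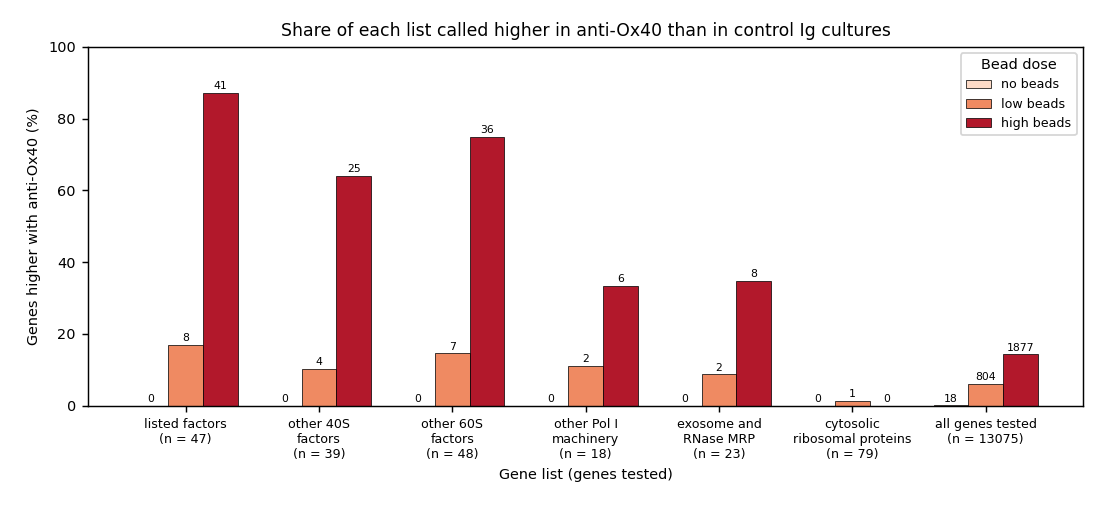
Share of each list called higher with anti-Ox40 than with control Ig, in percent, with no, low and high beads, with the number of genes above each bar. At high beads 41 of the 47 genes are called, 25 of 39 and 36 of 48 other factors of the 40S and 60S subunits, and 0 of 79 ribosomal protein genes, against 1877 of 13075 genes tested.

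Genes of the ribosome's own proteins behaved otherwise at this step. Of 79 tested genes of cytosolic ribosomal proteins, anti-Ox40 raised none at high beads and lowered 1, Rpl37a (-0.22, limma adjusted p = 0.0446), with a median log2 change of 0.01. Over all genes 14.4% were called higher and 26.0% in either direction. By limma 7 of the 79 had an unadjusted p under 0.05. Beads raised 62 of the 79 and lowered 3 in control Ig cultures, high against no beads, with a median log2 change of 0.61. In that comparison 43.4% of all genes were higher and 38.9% lower. These genes have many near-identical pseudogenes, and how shared reads were counted is not given in the sources used here, so their values are uncertain.

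Myc itself had 167, 148 and 139 nRPKM in anti-Ox40 cultures with high beads, against 115, 115 and 110.3 nRPKM in control Ig cultures. The groups lay apart, with a log2 change of 0.41 (SE 0.07, adjusted p = 0.000731), and the change was larger than without beads (interaction 0.44, adjusted p = 0.0148). At low beads Myc averaged 76.5 ± 4.03 nRPKM with anti-Ox40 and 72.9 ± 7.05 nRPKM with control Ig (SD, n = 3 each), and was not called (0.07, limma adjusted p = 0.543). Of the 9 tested genes of the Myc network, 2 were higher with anti-Ox40 at high beads (Myc and Mlx, 0.17) and 2 lower (Mxd3, -0.52, and Mxd4, -0.45), against 14.4% and 11.6% of all genes. At low beads 1 was higher, Mxi1 (0.22, adjusted p = 0.0459). Mxd3, Mxd4 and Mxi1 encode Max partners known as antagonists of Myc, and Mxd3 rose by 3.78 in control Ig cultures, high against no beads.

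Overlapping genes limit some of these values. The library kit does not mark strand, and 20 of the 47 genes overlap a gene on the opposite strand. Reads within the shared stretch cannot be assigned to either gene by strand. Over whole gene spans, introns included, the overlaps ran from 5 bases (Nop56) to 12804 bases (Pes1). Ncl, Gnl3, Nop56, Nop58, Dkc1, Wdr43 and Tsr1 contain 21 snoRNA genes, of which 11 have a row of their own in the table. The snoRNA overlaps too are of gene spans, and the counting annotation is not given. Whether reads of a snoRNA were also counted for its host transcript is therefore unknown.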

How the data were processed

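The series holds 18 RNA sequencing libraries in 6 groups of 3. The deposited values are RPKM normalised by the authors (nRPKM). Per the submitters' processing notes the tool was GSNAP and the build GRCm38. No source used here gives the counting tool, its annotation, strand setting or normalisation. Depth recovered from the steps of low values was 26.4 to 46.0 reads per nRPKM and kilobase, and limits from it cover counting error only.

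Genes with at least 1 nRPKM in at least 3 of 18 libraries were kept (13075), log2 transformed with a pseudocount of 1, and fitted in R 4.3.3 with limma 3.58.1, 1 mean per group with a shared, intensity-dependent variance and 12 residual degrees of freedom. Antibody, bead and interaction contrasts were tested on both sides, with Benjamini-Hochberg adjustment over all genes tested and a threshold of 0.05. The fitting was tested on simulated data. Members and lists were chosen with earlier results of these data known. Every member was named at least once. Where 12 or fewer members were called all were named, otherwise the 6 largest and 6 smallest changes and the highest member of each role. Per-library values were given for up to 4 members of each role (the highest levels and the smallest adjusted p at low beads), and for some others chosen after their values were seen. For other lists, up to 4 genes with the smallest adjusted p were named.

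Alternatives were no filter, pseudocounts of 0.1 and 0.5, no variance trend, median ratio scaling, a fit of only the groups compared, and leaving out each library in turn. A covariate made of the mean level of Malat1 and Neat1, and leaving out the library of each group with the highest B cell markers, were chosen after seeing the data.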

Additional observations from a re-analysis of the deposited data

Results flagged for a closer look

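The antibody change differed between high and no beads in 29 of the 47 genes by the interaction term of the limma fit, always in the direction of a larger change at high beads. All values are differences of log2 changes at an adjusted p under 0.05. No formal outlier test was run in groups of 3 libraries.

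Among nucleolar proteins and the polymerase, the difference was 0.57 for Nolc1, 0.47 for Ddx21, 0.46 for Gnl3, 0.44 for Mybbp1a, 0.40 for Ncl, 0.38 for Npm1 and 0.39 for Polr1b. Among snoRNP proteins it was 0.45 for Dkc1, 0.45 for Gar1 and 0.40 for Nop58. Factors of the 40S subunit had 0.68 (Rrp12), 0.50 (Rrp9), 0.43 (Ltv1), 0.43 (Wdr75), 0.41 (Wdr43), 0.37 (Nat10) and 0.36 (Pno1). Factors of the 60S subunit had 0.51 (Nop2), 0.48 (Nop16), 0.48 (Nip7), 0.47 (Wdr74), 0.42 (Bop1), 0.40 (Noc3l), 0.40 (Ftsj3), 0.38 (Ebna1bp2), 0.36 (Noc2l), 0.34 (Pes1), 0.33 (Ddx18) and 0.27 (Rrp1b).

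None of the 29 calls held in every other setting, and 13 held whichever library was left out.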

How the results depend on the processing

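No paired analysis was possible because the labels give no number shared between groups, and the replicate numbers used here are accession order only. Of the counts of genes called under the other settings 85 of 96 stayed within 1.5 times the reported count, and of those with a library left out 74 of 90. Counts that stayed at 0 were taken as within this limit, so these shares include comparisons without any call. For anti-Ox40 against control Ig at low beads the 8 calls became 1 with no filter, 5 with no variance trend, and 0 with only the groups compared, with the nuclear RNA covariate and without the libraries highest in B cell markers. They ranged from 0 to 28 with a library left out, while the calls over all genes ranged from 135 to 3524 around 1254. The 29 genes whose antibody change was larger at high than at no beads became 16 with no filter, 3 with the nuclear RNA covariate and 0 without the libraries highest in B cell markers, and 13 to 32 with a library left out. The counts of 0 for the change between low and no beads and between high and low beads became 0 to 15 and 0 to 4 with a library left out, the second being 4 with the nuclear RNA covariate. That covariate, which differs most between bead doses, also brought the 46 calls in control Ig cultures to 18 for high against low beads and to 28 for high against no beads. It reversed 5 changes: Mdn1 to 0.20 (high against low beads, control Ig) and 0.38 (high against no beads, anti-Ox40), Imp3 to -0.062 (high against no beads, control Ig) and -0.12 (the same, anti-Ox40), and Ddx18 to -0.027 (high against no beads, control Ig). The cause of these shifts was not tested. Fits with libraries left out hold fewer samples, and their counts moved both up and down.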
